A study of Mus musculus with 6 samples.

Results

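Chemical transmission between neurons rests on vesicles that are filled with transmitter, docked at the active zone, primed, fused when calcium enters and then recovered from the membrane. Synaptotagmins sense the calcium, SNARE proteins pull the membranes together, and scaffold proteins hold vesicles beside calcium channels. Most of these genes are used chiefly by neurons, with some use in endocrine and glial cells. The 37 genes described here encode this presynaptic machinery and were taken by symbol, by what they encode, from the 16729 genes in the deposited table. They comprise 6 vesicle proteins, 4 SNARE proteins, 2 SNARE disassembly factors, 9 calcium sensors and clamps, 10 priming and active zone genes, 3 vesicular transporters and 3 genes of endocytosis.

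The libraries came from tumors of mG7080 cells, a mouse glioblastoma line, grown in the brains of C57BL/6 mice that were either wild type (WT) or knockout for Esm1 (KO), with 3 libraries per group. Esm1 encodes Endocan, a proteoglycan secreted by endothelial cells, and the question was how its loss in the host altered the tumor. The same line was injected into both hosts, and the KO hosts lacked Esm1 throughout life and in every tissue. The study used female mice, whose age is given as 6 to 8 weeks in its methods and as 8 to 12 weeks in its reporting summary. All 6 tumors came from 1 line, and RNA was taken from whole resected tissue. According to the series description 3 mice per group were sacrificed, and tumors are numbered 1 to 3 in each group, so replicates are taken as separate mice. In such bulk tissue, fewer cells of a type and less RNA per cell cannot be told apart.

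Libraries held 17632070 to 22241832 counts, so 1 count was worth 0.0445 to 0.0570 CPM (counts per 1000000, with libraries scaled by edgeR's TMM factors), and the rarest member value was 93 counts. The targeted gene was checked first. Esm1 (chr13:113209659-113218104, GRCm38.p6) stood at 1.19, 1.09 and 4.05 CPM in WT 1, WT 2 and WT 3, and at 0.0570, 1.07 and 0.208 CPM in KO 1, KO 2 and KO 3. The library labelled KO 2 had 24 Esm1 counts against 21 to 82 in WT, whereas KO 1 had 1 and KO 3 had 4. In the fit, Esm1 had a log2 fold change of -2.20 (SE 1.006, adjusted p = 0.192) over all 6 and -3.89 (SE 0.98, adjusted p = 0.0226) without KO 2. Because KO 2 was set apart partly by its Esm1 level, the value without it is not a separate check of the targeted gene. Neural stem or glioma cell markers (10 of 10 genes in the file, none at 0 in any library) summed to 1745 to 2457 CPM in WT, 2147 CPM in KO 2, 588 CPM in KO 1 and 399 CPM in KO 3. Proliferation genes (14 of 14 in the file, none at 0) summed to 1467 to 2659 CPM in WT, 1622 CPM in KO 2, 143 CPM in KO 1 and 34.1 CPM in KO 3. KO 2 was thus inside the WT range on both marker sums and just below it for Esm1. Whether this tissue came from a KO host cannot be settled from these files, and every value over all 6 libraries takes its label as given. Results are therefore given with it and without it.

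Promoter sequence was read for the members because they moved together, and it is shown for a gene with a match to the binding motif of the neuronal gene repressor REST and for the member with the largest fold change. RefSeq windows on GRCm38.p6, from 250 bases before to 50 after a start site, were found for 30 of the 37 members (41 windows). Members with none were Syt4, Vamp2, Doc2a, Snap25, Syt7, Syt5 and Rims2. In the stretches printed, which hold only bases before the start, the RE1-like match of Syn1 (chrX:20920919-20921168, minus strand) and the GGGCGG or CCGCCC boxes of Slc17a7 (chr7:45163671-45163920, plus strand) are in capitals, with overlapping boxes as 1 run.
Syn1: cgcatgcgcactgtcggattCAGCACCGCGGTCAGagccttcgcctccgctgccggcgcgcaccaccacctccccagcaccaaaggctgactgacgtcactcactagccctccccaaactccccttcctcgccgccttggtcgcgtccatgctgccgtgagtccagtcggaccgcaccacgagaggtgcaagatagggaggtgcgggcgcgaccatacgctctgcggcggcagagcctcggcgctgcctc
Slc17a7: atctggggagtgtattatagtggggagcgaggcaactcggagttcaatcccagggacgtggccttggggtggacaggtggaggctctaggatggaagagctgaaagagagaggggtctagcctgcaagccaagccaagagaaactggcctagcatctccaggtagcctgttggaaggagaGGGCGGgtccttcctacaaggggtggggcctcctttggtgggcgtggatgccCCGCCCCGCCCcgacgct

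The RE1 core was searched as CAGCACC, any 2 bases and GGACAG, on both strands, with at most 1 mismatch in its 13 letters. It occurred in 3 of 41 member windows (7.32%) and in 61 of 32851 windows of all genes (0.186%). Each match below is written 5′ to 3′ on the strand that carries it, with the letters searched in capitals.
Syn1 (chrX:20921134-20921148, gene strand): CAGCACCgcGGTCAG
Rph3a (chr5:121009616-121009630, opposite strand): CAGTACCacGGACAG
Slc17a6 (chr7:51621864-51621878, opposite strand, after the start site): CAGGACCacGGACAG
The GC box GGGCGG, searched on both strands, was found in 24 of 41 member windows (58.5%) against 35.7% of all windows. Member windows had a median GC content of 61.3% against 52.7%. These matches describe letters in the windows only.

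Presynaptic transcripts in sum were more abundant in tumors from KO 1 and KO 3 than in every other library. The 37 members together summed to 11015, 3976 and 6366 CPM in WT 1, WT 2 and WT 3 and to 21771, 8906 and 27622 CPM in KO 1, KO 2 and KO 3, means of 7119 ± 3580 and 19433 ± 9574 CPM (SD, n = 3 each). KO 2 lay between WT 3 and WT 1, so the groups overlapped. As a share of all counts the members took 1.13%, 0.436% and 0.681% of the WT libraries and 1.98%, 0.940% and 2.39% of the KO libraries. Over all 6 libraries 36 of 37 members had a log2 fold change above 0 (KO over WT; 48.7% of all genes tested), with a median of 1.42 and a range from -0.11 to 1.98, against a median of -0.02 over the 16166 genes tested. None passed an adjusted p of 0.05 in edgeR's quasi-likelihood test (0% of all genes higher at that threshold), where members had adjusted p from 0.184 to 0.927. At an unadjusted p under 0.05, 20 members were higher (15.2% of all genes), and DESeq2 called 6 (4.68% of all genes).

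Leaving out the library labelled KO 2 changed the calls. Against the 3 WT libraries, KO 1 and KO 3 gave 31 of 37 members higher at an adjusted p of 0.05 (24.5% of 16279 genes), with a median log2 fold change of 1.76. The members not called were Sv2c, Syt2, Unc13c, Rab3c, Slc17a6 and Slc32a1. In the 4 libraries that the study's own result columns cover (WT 1, WT 2, KO 1, KO 3), the median was 1.62 and no member passed (2.87% of all genes did), with the lowest adjusted p at 0.0508 for Syt7. At an unadjusted p under 0.05 these 4 libraries gave 29 members (19.9% of all genes), while edgeR's exact test called 29 (16.2% of all genes) and DESeq2 called 33 (16.6% of all genes). The calls therefore differed with the libraries and the test, while the median stayed above 1 in each. Since no member passed over all 6, the counts of members that rose in the role groups are those without KO 2. Each role group count stands against 24.5% of all genes rising in that fit. Leaving out KO 2 was chosen after seeing the data, and it had the lowest member sum of the KO libraries (8906 CPM). Those counts and the adjusted p-values without KO 2 are conditional on that choice.

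The order of the libraries was nearly the same for each gene. KO 1 and KO 3 both exceeded every WT library for 34 members (37.5% of all genes), the exceptions being Unc13c, Slc17a6 and Slc32a1. All 3 KO libraries exceeded all 3 WT libraries for 4 members, Stx1a, Syt7, Syt11 and Cplx2 (13.2% of all genes). KO 2 fell within the WT range for the other 33. WT 2 was the lowest of the 6 libraries for 36 members and WT 1 the highest WT library for 36, with WT 1 exceeding WT 2 by 1.40- to 6.42-fold (median 2.80-fold). The spread within WT was thus wide for the whole set. No share of all genes was computed for this WT order, so it is not read as particular to the members. Sums of other presynaptic, other neuronal and myelin genes had the same WT order, and those of proliferation and glioma genes did not.

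**Figure D1:**
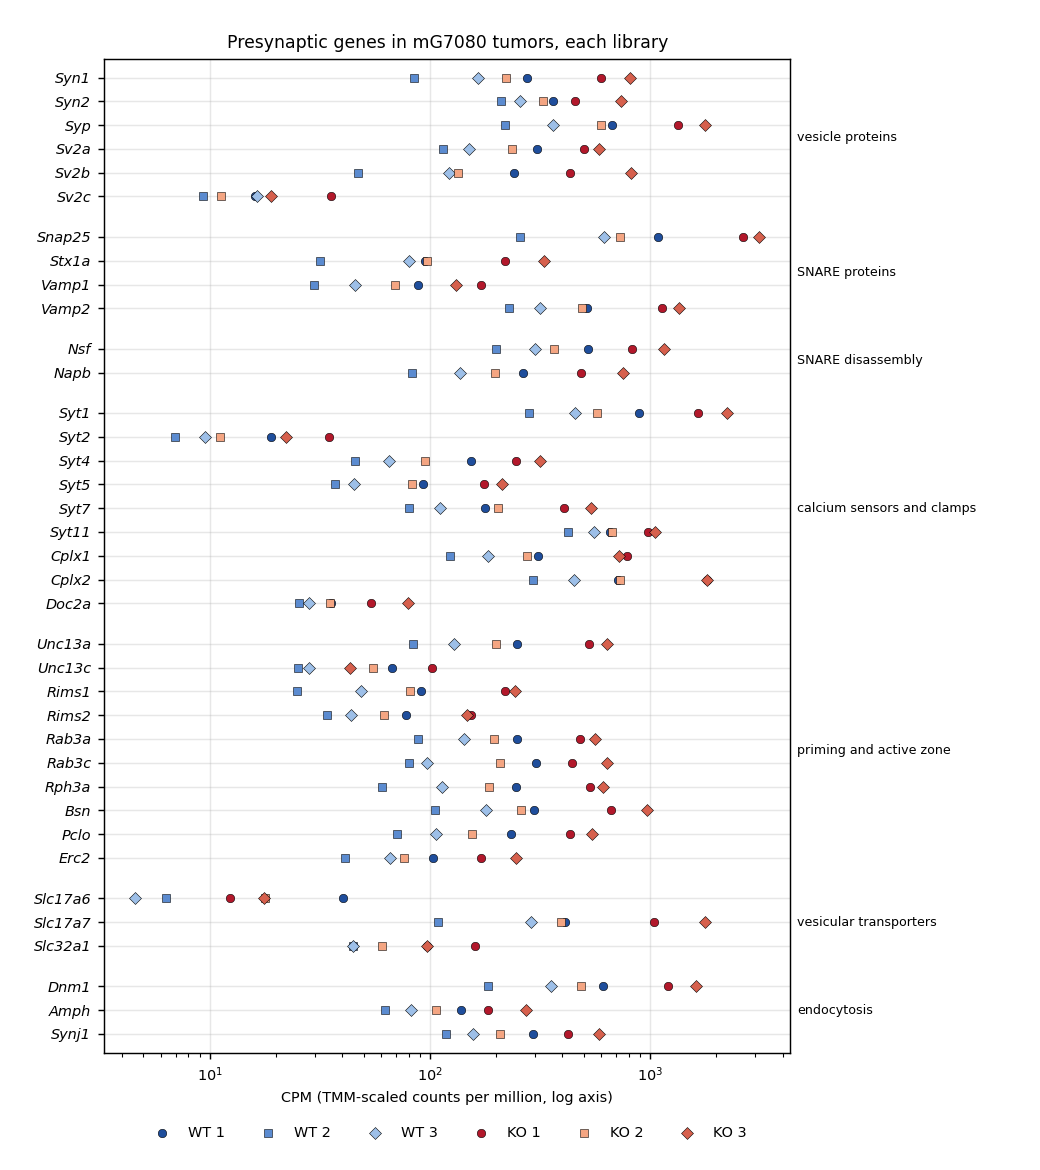
CPM (log axis) of the 37 presynaptic genes in each library, WT in blue and KO in red shades, grouped by role. KO 1 and KO 3 lie to the right of every WT library for 34 genes, while KO 2 lies within the WT range for 33.

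Vesicle proteins had a median log2 fold change of 1.38 over all 6 libraries and 1.71 without KO 2, where 5 of 6 rose. Syp encodes synaptophysin, an abundant membrane protein of the vesicle. It was measured at 675, 219 and 363 CPM in WT 1, WT 2 and WT 3 and at 1338, 600.4 and 1786 CPM in KO 1, KO 2 and KO 3. Apart from KO 2, which was just below WT 1, the KO libraries were above all WT libraries. Its log2 fold change was 1.56 (SE 0.56, adjusted p = 0.184) over all 6 and 1.90 (SE 0.48, adjusted p = 0.0229) without KO 2.

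The SV2 proteins are vesicle glycoproteins, and the 3 genes differed in size of change. Sv2b stood at 241, 47.0 and 123 CPM in WT and at 435, 134 and 822 CPM in KO 1, KO 2 and KO 3. Here KO 3 was the highest and WT 2 far below the other libraries. The log2 fold change was 1.76 (SE 0.81, adjusted p = 0.194) over all 6 and 2.20 (SE 0.66, adjusted p = 0.0359) without KO 2. Sv2c was rarer, at 15.99, 9.30 and 16.4 CPM in WT and 35.7, 11.3 and 19.0 CPM in KO, so KO 3 scarcely exceeded WT. Its log2 fold change was 0.65 (SE 0.46, adjusted p = 0.320) over all 6 and 0.98 (SE 0.36, adjusted p = 0.0610) without KO 2. Among the other vesicle genes, the synapsins Syn1 and Syn2, which tether vesicles to one another, had 1.63 and 0.86 over all 6 and 2.02 and 1.11 without KO 2. Sv2a had 1.21 and 1.52.

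All 4 SNARE genes rose without KO 2, with a group median of 1.91 (1.56 over all 6). Snap25 (chr2:136713439-136782428), the plasma membrane SNARE of the nerve terminal, was the most abundant member per gene length, at 325 ± 198 FPKM in WT and 927 ± 494 in KO (fragments per kilobase, scaled to sequencing depth by the authors; SD, n = 3). Its CPM was 1090.3, 257 and 619 in WT 1, WT 2 and WT 3 and 2657, 727 and 3132 in KO 1, KO 2 and KO 3. KO 2 lay between WT 3 and WT 1. The log2 fold change was 1.72 (SE 0.73, adjusted p = 0.185) over all 6 and 2.15 (SE 0.58, adjusted p = 0.0271), or 4.43-fold, without KO 2. Vamp1, a vesicle SNARE, had 88.5, 29.9 and 45.6 CPM in WT and 171, 69.2 and 131 CPM in KO. KO 1, not KO 3, was its highest library. Its log2 fold change was 1.17 (SE 0.49, adjusted p = 0.184) over all 6 and 1.47 (SE 0.44, adjusted p = 0.0357) without KO 2. The partner SNAREs Stx1a and Vamp2 gave 1.64 and 1.48 over all 6 and 2.00 and 1.82 without KO 2.

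SNARE disassembly is carried out by the ATPase encoded by Nsf and its adaptors, of which Napb is the brain form. Nsf was at 521, 201 and 301 CPM in WT and at 827, 367 and 1152 CPM in KO, and Napb at 265, 83.2 and 136 CPM in WT and at 485, 198 and 751 CPM in KO. In both genes KO 2 fell between WT 3 and WT 1. Nsf had a log2 fold change of 1.19 (SE 0.53, adjusted p = 0.189) over all 6 and 1.54 (SE 0.42, adjusted p = 0.0281) without KO 2. For Napb the values were 1.56 (SE 0.61, adjusted p = 0.184) and 1.94 (SE 0.50, adjusted p = 0.0236).

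Calcium sensors and clamps had a median of 1.42 over all 6 and 1.74 without KO 2, where 8 of 9 rose. Syt1, the fast calcium sensor of release, was measured at 887, 281 and 459 CPM in WT and 1649, 573 and 2228 CPM in KO. Both KO 1 and KO 3 were above all WT libraries and KO 2 was within them. Its log2 fold change was 1.45 (SE 0.63, adjusted p = 0.188) over all 6 and 1.84 (SE 0.50, adjusted p = 0.0270) without KO 2. Syt7 (chr19:10388802-10453181), a slower sensor with high calcium affinity, had 178, 80.2 and 111 CPM in WT and 407, 203 and 538 CPM in KO. Its groups did not overlap. The log2 fold change was 1.63 (SE 0.45, adjusted p = 0.184) over all 6 and 1.94 (SE 0.35, adjusted p = 0.0115), or 3.85-fold, without KO 2.

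Syt11 is a synaptotagmin that does not bind calcium and is also used outside neurons. It had 659.9, 423 and 554 CPM in WT and 979, 672 and 1050.3 CPM in KO. Every KO library was above every WT library, by a small margin for KO 2. Its log2 fold change was the lowest of the group, 0.71 (SE 0.28, adjusted p = 0.184) over all 6 and 0.90 (SE 0.25, adjusted p = 0.0292) without KO 2. Complexins clamp and promote fusion, and Cplx1 and Cplx2 had 1.52 and 1.57 over all 6 and 1.87 and 1.90 without KO 2. Of the same group, Syt4, Syt5 and Doc2a had 1.31, 1.42 and 0.91 over all 6 and 1.68, 1.74 and 1.17 without KO 2. Syt2, which was not called, had 0.93 (adjusted p = 0.244) and 1.27 (adjusted p = 0.0545).

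Priming and active zone genes had a median of 1.44 over all 6 and 1.801 without KO 2, where 8 of 10 rose. Bsn encodes Bassoon, a giant scaffold of the active zone, and had 298, 106 and 181 CPM in WT and 666, 259.7 and 967 CPM in KO. Rims1, whose protein links vesicles to calcium channels, had 91.2, 24.9 and 48.8 CPM in WT and 220.1, 81.3 and 244 CPM in KO. For both genes KO 2 lay below WT 1 and above WT 3. Bsn had a log2 fold change of 1.69 (SE 0.58, adjusted p = 0.184) over all 6 and 2.07 (SE 0.45, adjusted p = 0.0162) without KO 2. Rims1 had 1.72 (SE 0.59, adjusted p = 0.184) and 2.08 (SE 0.50, adjusted p = 0.0203).

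Unc13c, a Munc13 priming factor that is prominent in cerebellar granule cells, departed from this order. It had 67.05, 25.2 and 28.3 CPM in WT and 103, 55.2 and 43.6 CPM in KO. KO 3 was below both WT 1 and KO 2, and KO 1 exceeded KO 3 by 2.35-fold. The log2 fold change was 0.73 (SE 0.49, adjusted p = 0.296) over all 6 and 0.87 (SE 0.54, adjusted p = 0.212) without KO 2. Its relative Unc13a had 1.56 over all 6 and 1.93 without KO 2. On the same 2 fits Rims2 had 1.22 and 1.55, Rab3a 1.36 and 1.71, Rph3a 1.66 and 2.03, Pclo 1.46 and 1.84, and Erc2 1.22 and 1.58. Rab3c, a vesicle GTPase, had 1.42 (adjusted p = 0.191) and 1.76, and was not called in either (adjusted p = 0.0512 without KO 2).

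**Figure D2:**
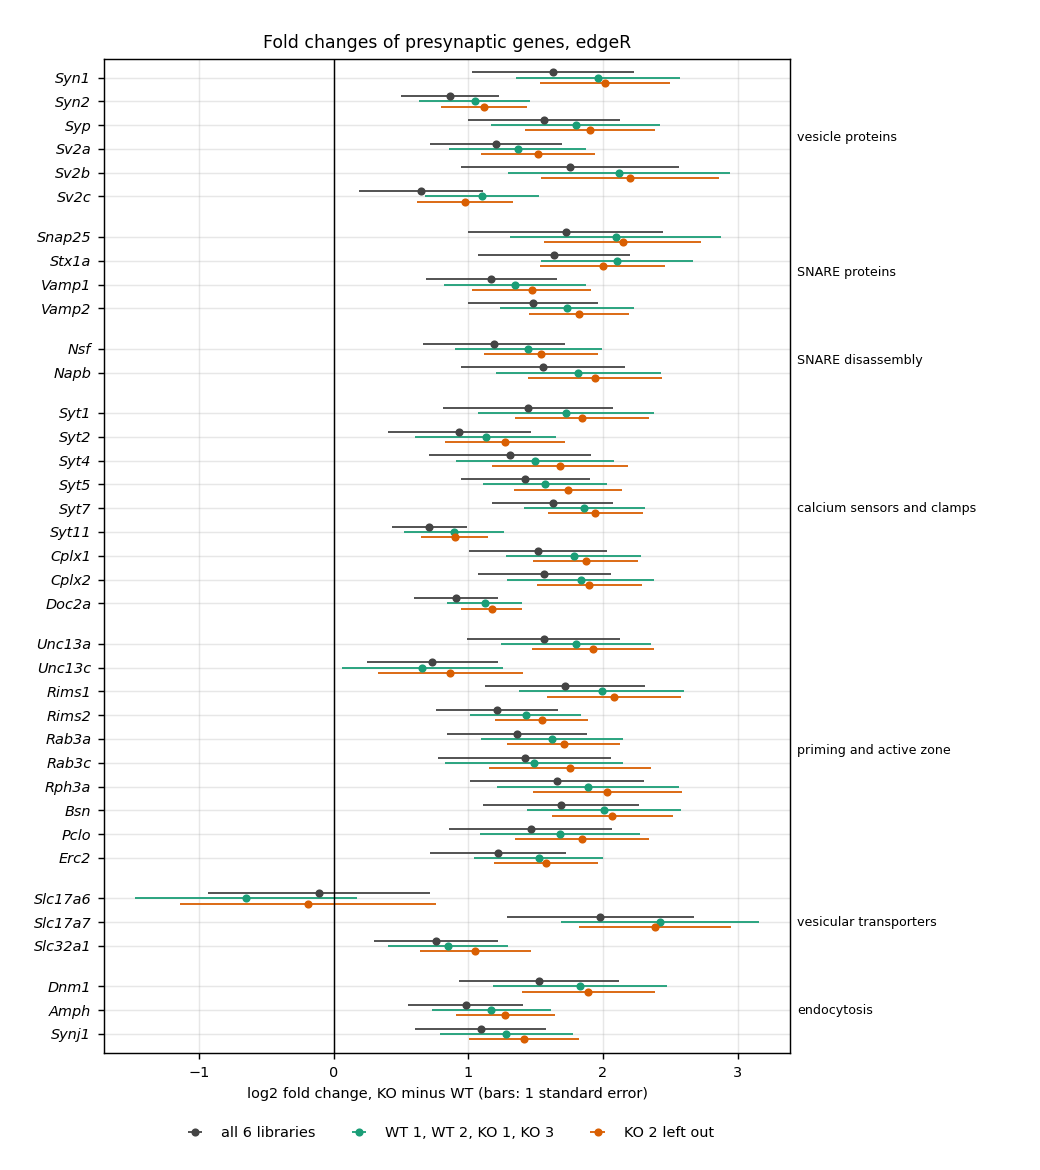
Log2 fold change (KO over WT) of each member with bars of 1 standard error, over all 6 libraries, over WT 1, WT 2, KO 1 and KO 3, and with KO 2 left out. All members but Slc17a6 lie above 0 in each, and the highest is Slc17a7 (1.98 over all 6).

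The vesicular transporters, which decide which transmitter a vesicle holds, differed most among themselves. Slc17a7 (chr7:45163921-45176139) encodes VGLUT1, the glutamate transporter typical of cortical and hippocampal neurons. It had 412, 109 and 289 CPM in WT 1, WT 2 and WT 3, against 1044, 392 and 1771 CPM in the KO libraries 1, 2 and 3. KO 2 was just below WT 1, and KO 3 stood well above the rest. Its log2 fold change, the highest of the 37, was 1.98 (SE 0.69, adjusted p = 0.184) over all 6 and 2.39 (SE 0.57, adjusted p = 0.0197), or 5.23-fold, without KO 2.

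Slc17a6 (chr7:51621830-51671126) encodes VGLUT2, the glutamate transporter typical of thalamus, hypothalamus and brainstem. Its values were 40.5, 6.31 and 4.59 CPM in WT and 12.3, 17.8 and 17.6 CPM in KO. WT 1 was the highest of all 6 libraries and the other WT libraries the lowest, so the 3 KO libraries lay inside the WT range. The log2 fold change was -0.11 (SE 0.82, adjusted p = 0.927) over all 6 and -0.19 (SE 0.95, adjusted p = 0.876) without KO 2. It rested on WT 1, since without WT 1 it was 1.51 over the other libraries. Slc32a1, the transporter for GABA and glycine, had 0.76 (SE 0.46, adjusted p = 0.264) over all 6 and 1.05 (SE 0.41, adjusted p = 0.0742) without KO 2, with KO 1 the highest library.

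Ratios within a library set these transporters against each other without any scaling between libraries. Slc17a7 over Slc17a6 (FPKM) was 14.9, 25.4 and 92.5 in WT and 125, 32.4 and 147 in KO, with KO 2 inside the WT range (exact permutation test on log2 ratios, two-sided p = 0.2). Slc17a7 over Slc32a1 was 4.05, 2.32 and 6.14 in WT and 6.19, 6.17 and 17.5 in KO. The groups did not overlap, although KO 1 and KO 2 barely exceeded WT 3, and the exact permutation p was 0.1, the smallest that 3 against 3 allows. Within families, Syt1 over Syt2 was 28.8 to 34.5 in WT and 33.9, 37.0 and 71.9 in KO (exact permutation p = 0.2), and Vamp2 over Vamp1 was 7.40 to 9.73 in WT and 8.40, 8.996 and 13.1 in KO (exact permutation p = 0.5). KO 3 had the highest value of all 4 ratios.

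**Figure D3:**
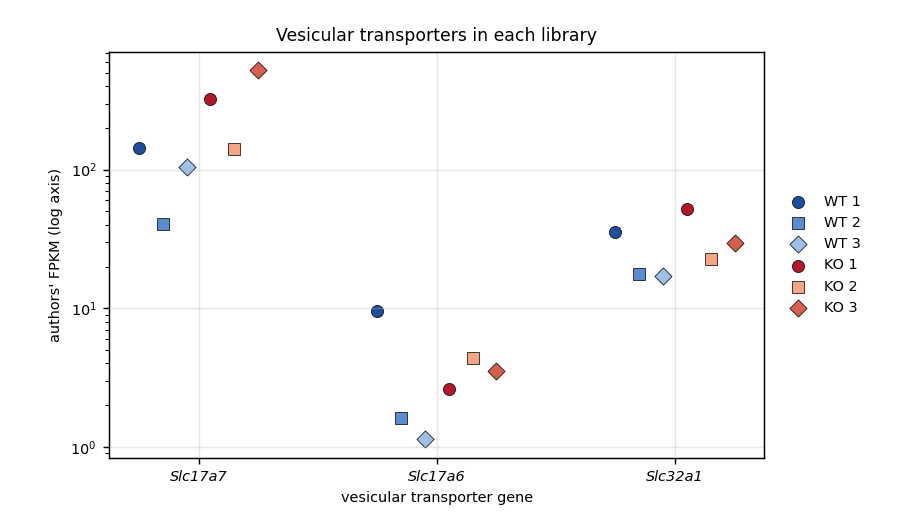
The authors' FPKM (log axis) of the vesicular transporter genes Slc17a7, Slc17a6 and Slc32a1 in each library. Slc17a7 is highest in KO 3 and KO 1, Slc17a6 is highest in WT 1 (9.62 FPKM), and Slc32a1 is highest in KO 1.

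Endocytosis genes recover vesicle membrane after fusion, and all 3 rose without KO 2, with a group median of 1.42 (1.09 over all 6). Dnm1, the neuronal dynamin that severs the vesicle neck, had 609, 184 and 355 CPM in WT and 1209.5, 484 and 1623 CPM in KO. Amph, a membrane-bending partner of dynamin, had 138, 62.7 and 82.0 CPM in WT and 183, 107 and 273 CPM in KO. KO 1 and KO 3 were above all WT libraries in both, by a smaller margin for Amph. Dnm1 had a log2 fold change of 1.52 (SE 0.60, adjusted p = 0.184) over all 6 and 1.89 (SE 0.50, adjusted p = 0.0251) without KO 2. Amph had 0.98 (SE 0.43, adjusted p = 0.188) and 1.28 (SE 0.36, adjusted p = 0.0312), and Synj1, a lipid phosphatase that helps strip the clathrin coat, had 1.09 over all 6 and 1.42 without KO 2.

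KO 1 and KO 3 were not alike in every gene. KO 3 was higher than KO 1 for 30 members, and KO 1 was higher for Unc13c (2.35-fold), Sv2c (1.88-fold), Slc32a1 (1.67-fold), Syt2 (1.57-fold), Vamp1 (1.31-fold), Cplx1 (1.09-fold) and Rims2 (1.04-fold). With 1 library on each side these folds carry no test. Per gene length, levels ranged from Snap25 through Syp (177 ± 92.9 FPKM in WT) and Vamp2 (173 ± 66.0) down to Slc17a6 (4.12 ± 4.77), Syt2 (3.67 ± 1.83) and Sv2c (3.46 ± 0.93, SD, n = 3 each). Neighbours in that order differed by less than the larger of their SDs.

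Other genes of the synaptic terminal, from a list of 54 symbols of which 53 were in the file (Tspoap1 was not), moved much as the members did. Of the 53, 51 had a log2 fold change above 0, with a median of 1.20 over all 6 and 1.52 without KO 2. In the fit without KO 2, 41 rose and none fell (24.5% and 28.3% of all genes did). The lowest and highest over all 6 were Slc18a3, the vesicular acetylcholine transporter (-0.40, at 0.469 to 4.16 CPM), and Cplx3 (1.85). In the 4 libraries of the study's own columns 4 of the 53 rose (2.87% of all genes did). These were the synaptotagmin Syt12 (1.70), the priming factor Unc13b (1.38), and the active zone genes Rimbp2 (1.73) and Ppfia3 (1.76). Paralogs of the members that most cell types use were counted next. Of 26 listed symbols 22 were in the file (Vamp7, Stx4, Stxbp3 and Sypl1 were not), and 7 had a log2 fold change above 0 and 15 below over all 6, with a median of -0.17. Their extremes were Syngr2 (-1.08) and Napg (1.03), and without KO 2 the median was -0.40, with 6 rising and 9 falling (24.5% and 28.3% of all genes did).

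Within each library, members were set against their paralogs by FPKM in 12 pairs. Snap25 over Snap23, the SNARE of non-neuronal membranes, was 38.1, 6.14 and 18.5 in WT 1, WT 2 and WT 3 and 116, 22.2 and 186 in KO 1, KO 2 and KO 3 (exact permutation p = 0.2). Again KO 2 was within the WT range and the other KO libraries were above it. The same held for the pairs in general, since KO 1 and KO 3 exceeded all WT libraries in 11 of 12, Amph over Bin1 being the exception (0.322 to 0.457 in WT, and 0.407, 0.336 and 0.592 in KO). All 3 KO libraries exceeded WT in 2 pairs, Stx1a over Stx4a (0.364 to 1.14 in WT, 1.15 to 4.17 in KO) and Synj1 over Synj2 (2.66 to 3.45 in WT, 3.68 to 4.06 in KO), each at the smallest possible exact permutation p of 0.1. Among single genes, these 2 orders held for 37.5% and 13.2% of all genes. No such share was computed for ratios of other genes, so the pair counts are not read as a result about the members.

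**Figure D4:**
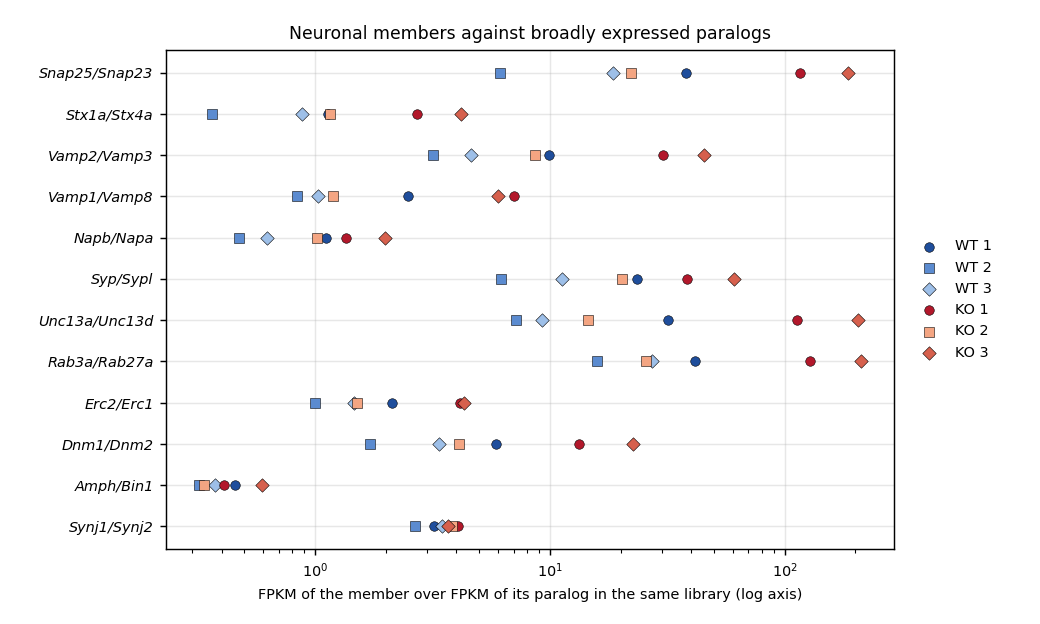
FPKM of each of 12 members divided by that of a broadly expressed paralog in the same library (log axis), WT in blue and KO in red shades. KO 1 and KO 3 exceed every WT library in 11 pairs, and KO 2 does so in 2.

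Markers of neurons that are not part of the terminal were also highest in KO 1 and KO 3 and lowest in WT 2. The 16 neuronal genes (16 of 16 in the file, none at 0), among them the neurofilament genes, Rbfox3 and Tubb3, summed to 8176, 3866 and 4861 CPM in WT 1, WT 2 and WT 3 and to 16290.3, 8052 and 15923 CPM in KO 1, KO 2 and KO 3. In this sum KO 1 exceeded KO 3, unlike in the members, whose sum was 1.03 (WT 2) to 1.73 (KO 3) times that of the neuronal genes. By mean log2 CPM KO 3 was above KO 1 in both lists, at 9.26 against 9.17 for neuronal genes and 8.69 against 8.47 for members. The neuronal genes had a median log2 fold change of 1.37 over all 6 and 1.68 without KO 2, where all 16 rose (24.5% of all genes did). The extremes over all 6 were Map2 (0.48) and Nefm (1.58). Scaled to the summed counts of these neuronal genes, the members had a median log2 fold change of 0.19 over all 6 (range -0.89 to 0.70), with 22 above 0 and 15 below, and 32 of 37 lay within 0.5 of 0. Of all 16166 genes tested, 1261 were above 0 on this scale. Without KO 2 the median of the members was 0.31. On this scale 1 member was higher, Slc17a7 (0.93, SE 0.40, adjusted p = 0.0319; 0.0737% of all genes were higher), and 1 was lower, Slc17a6 (-1.43, SE 0.55, adjusted p = 0.0160; 69.4% of all genes were lower). In the 4 libraries Slc17a6 was also lower (-1.82, SE 0.73, adjusted p = 0.0275; 53% of all genes were lower), and Slc17a7 had 1.16 (SE 0.53, adjusted p = 0.0538). Both of these Slc17a6 values include WT 1, which had 40.5 CPM against 6.31 and 4.59 CPM in WT 2 and WT 3. Scaling to neuronal genes was not fitted without WT 1, so how far the lower values rest on that library was not tested. This scaling moved the median of all genes to -1.23 over all 6, so values on it are relative to neuronal transcripts.

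**Figure D5:**
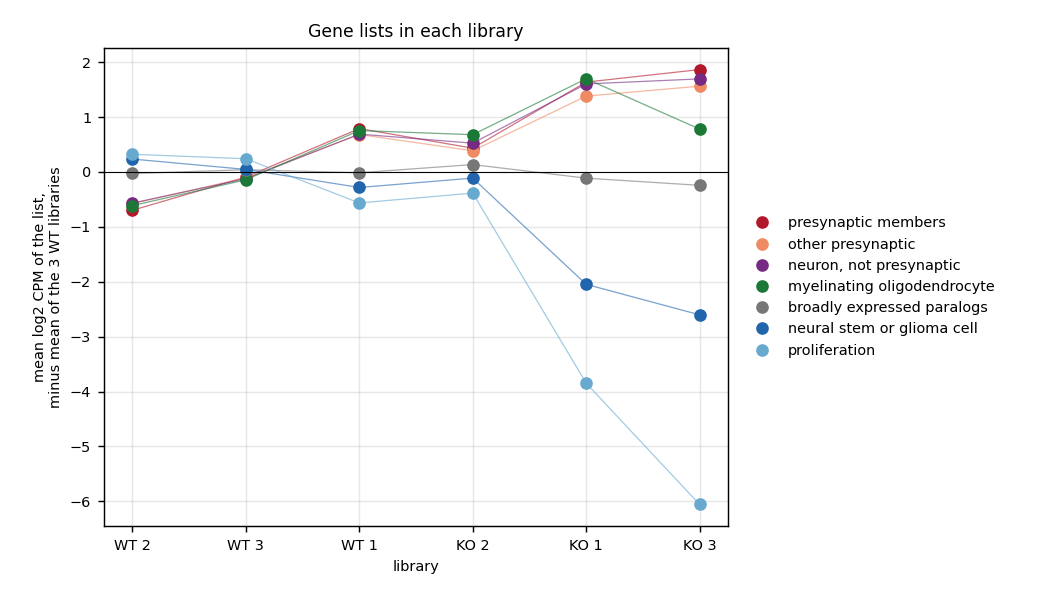
Mean log2 CPM of each gene list per library, minus its mean over the 3 WT libraries. Presynaptic members, other presynaptic genes and other neuronal genes lie near one another in every library, and in KO 1 and KO 3 they are high where glioma and proliferation genes are low.

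Markers of other cell types were summed in the same way, and their counts of calls stand against 24.5% of all genes rising and 28.3% falling without KO 2. Myelin genes (10 of 10, none at 0) summed to 1351 to 3426 CPM in WT and 3271 to 7628 CPM in KO, highest in KO 1. All 10 had a log2 fold change above 0, with a median of 1.05 over all 6 and 1.23 without KO 2. In the fit without KO 2, 2 of 10 rose, a share below that of all genes. Astrocyte genes (10 of 10, none at 0) summed to 3314 to 4471 CPM in WT and 4885 to 7157 CPM in KO, with every KO library above WT, and with 6 rising and Gfap falling without KO 2. All 14 proliferation genes and all 10 neural stem or glioma genes fell without KO 2, with median log2 fold changes of -4.52 and -2.45 (-1.84 and -1.05 over all 6, where none passed). KO 2 was set apart partly by the sums of these same lists, so their falls without it are not a test of them. T cell genes (6 of 7 in the file, none at 0) summed to 29.8 to 33.4 CPM in WT and 7.08 to 46.7 CPM in KO, and 5 fell without KO 2. Microglia and macrophage genes (11 of 11, none at 0) summed to 1183 to 1245 CPM in WT and 702 to 1652 CPM in KO, with 1 rising and 6 falling there. Endothelial genes (10 of 10, none at 0) summed to 187 to 236 CPM in WT and 181 to 245 CPM in KO, with KO 1 the highest library and KO 3 the lowest, and with 2 rising. The part that the amount of brain tissue and of tumor cells in each piece had in the presynaptic values was not tested.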

How the data were processed

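RNA from resected tumors was extracted with TRIzol and made into libraries, with the NEBNext Ultra kit per the labels and an Ovation Ultralow kit per the study's methods. The deposited counts are raw reads per gene made by the authors. The labels name mm10, CASAVA 1.8.2 and edgeR, whereas the methods name hg38 and HTSeq, and the reporting summary STAR. Which build served these mouse libraries was not settled, and whether counting used strand is not given in the sources used here. The FPKM values are the authors' deposited values per gene length and depth. The authors' fold changes, p-values and averages in the same table were not used.

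Counts were scaled with TMM factors, filtered with filterByExpr (minimum count 10, total 15) and tested with edgeR 4.0.16 (quasi-likelihood, R 4.3.3). P-values were adjusted by the Benjamini-Hochberg method across every tested gene, and the threshold was 0.05. Sample groups came from the labels. Fits used all 6 libraries, the 4 libraries of the study's result columns, or all but KO 2. All 37 members passed the filter. Alternatives used DESeq2 1.42.0, limma-voom 3.58.1, edgeR's exact test, other scalings and each library left out. FPKM ratios were compared by exact permutation of log2 ratios (two-sided, scipy 1.17.1).

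Members, role groups and lists were chosen with earlier results of these data known. Values in every library are given for the most abundant member of each role group, for those with its highest and lowest log2 fold change over all 6, and for any member below 0. Depth limits the precision of rare genes such as Esm1, and counting error alone is smaller than the spread between libraries for the members.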

Additional observations from a re-analysis of the deposited data

How the results depend on the processing

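Over all 6 libraries, the count of members higher was 0 under RLE, upper quartile or library size scaling, without a filter on low counts, with limma-voom, with edgeR's exact test and with a fold change over 4 added, and 6 with DESeq2. DESeq2 called 4.68% of all genes higher. Leaving out each library gave 0 to 31 members (31 without KO 2, where 24.5% of all genes were higher, and 0 otherwise) and medians of 1.07 to 1.92. With KO 2 left out, chosen after seeing the data, DESeq2 and edgeR's exact test each gave 35 and limma-voom 33, while scaling to neuronal genes gave 1 with a median of 0.31. Of all 16279 genes tested, 4585, 4325, 4231 and 12 were higher in these fits, in the same order. Scaling to neuronal genes gave a median of 0.19 over all 6 and 0.28 over the 4 libraries. In the 4 libraries DESeq2 gave 33, the exact test 29, upper quartile factors 2, and RLE and library size alone 1 each. Of all 16183 genes tested, 2679, 2622, 515, 524 and 395 were higher in these fits, in the same order. Leaving out each of these 4 gave 0 to 36 (36 without WT 1, 16 without WT 2) and medians of 1.06 to 2.54. Each such fit leaves a group with 1 library, which is assumed to vary like the other group. Without WT 3 as well as KO 2 the fit is that of the 4 libraries, where the count is 0 and not 31. Library size alone moved the median of all genes to -0.17 over all 6 and -0.27 in the 4 libraries. The cause of these differences was not tested.

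The replicate numbers did not pair the samples: deviations of same-numbered libraries correlated at 0.55, 0.60 and -0.21, and not every library correlated best with its own number. With a replicate block over all 6, 0 members were higher, with a median of 1.42.

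Of the genes with values in every library, 21 values under an alternative changed sign. Slc17a6 was 0.54 with limma-voom, 0.63 with the replicate block, 0.05 without KO 1 and 1.51 without WT 1 over all 6, 0.47 with limma-voom without KO 2, and 1.23 without WT 1 in the 4 libraries. With each library left out, it ran from -0.55 (without WT 3) to 1.51 over all 6 and from -1.44 (without WT 2) to 1.23 in the 4 libraries. Unc13c ran from -0.078 (without KO 1) to 1.52 (without WT 1) in the 4 libraries. Scaled to neuronal genes over all 6, Amph was -0.26, Nsf -0.073, Sv2c -0.69, Syt11 -0.54, Unc13c -0.37 and Vamp1 -0.031. On that scale without KO 2, Amph was -0.23, Sv2c -0.61, Syt11 -0.69 and Unc13c -0.60, and in the 4 libraries Amph was -0.23, Sv2c -0.37, Syt11 -0.59 and Unc13c -0.70.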
